A study of Ovis aries with 16 samples.

Results

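The probes for Toll-like receptors, for their co-receptor CD14 and for their adaptor MYD88 were followed in hypothalamic RNA of late-gestation fetuses of Suffolk sheep (Ovis aries). A probe was a member if its gene name in the scanner files was TLR followed by a number, CD14 or MYD88. That rule found 20 of the 15008 probes on the array, for 11 of the 1029 named genes (TLR1 to TLR9, CD14 and MYD88), and used no measured value. Of these, 15 probes of 8 genes were well above background on at least 3 of the 16 arrays and were tested. The probes of TLR1, TLR8 and TLR9 were not.

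Each array held total RNA of 1 fetus, carried by a chronically catheterized ewe. The fetus received saline or ketamine intravenously, then 30 min of normoxia or of maternal ventilatory hypoxia, then 23.5 h of normoxia, and tissue was taken at 24 h. The groups were normoxia with saline (NC, n = 3), normoxia with ketamine (NK, n = 4), hypoxia with saline (HC, n = 5) and hypoxia with ketamine (HK, n = 4). Ketamine is an anesthetic that blocks the NMDA class of glutamate receptors. All animals carried catheters and were sampled at a single time point, so a brief or early change in the first hours was not measured.

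Toll-like receptors are membrane proteins that recognize conserved microbial molecules and some molecules released from damaged cells. TLR2, which pairs with TLR1 or TLR6, recognizes bacterial lipoproteins, TLR4 recognizes lipopolysaccharide with the help of CD14, TLR5 recognizes flagellin, and TLR3, TLR7, TLR8 and TLR9 recognize nucleic acids inside endosomes. Every one of them except TLR3 signals through the adaptor MYD88 to NF-kB, and in brain the receptors are known mainly from microglia and other resident macrophages, although astrocytes, endothelium and neurons carry some of them.

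Several genes had more than 1 probe, and the sequences show how far these probes are separate measurements. All are 60 bases long and are given 5′ to 3′. The probes of TLR2, which had the smallest p of the members below, shared no bases. They start at bases 2062 and 2168 of the same transcript record.

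TLR2 A_70_P050917: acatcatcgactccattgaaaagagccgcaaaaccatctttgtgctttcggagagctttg

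TLR2 A_70_P050916: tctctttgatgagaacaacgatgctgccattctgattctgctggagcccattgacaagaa

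TLR4 had 1 probe under its own name. A further 3 probes were described in the design as Toll-like receptors but carried an identifier in place of a gene name, so they lay outside the rule and were used only for comparison. They were 1 for TLR4, named for an assembled transcript, and 2 for TLR10, a receptor of the TLR1 and TLR6 group.

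TLR4 A_70_P049612: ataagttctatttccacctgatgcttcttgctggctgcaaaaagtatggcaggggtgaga

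Described as TLR4, A_70_P049611: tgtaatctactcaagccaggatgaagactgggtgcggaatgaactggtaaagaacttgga

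The MYD88 probes were designed on different records, a reference transcript for the first and an expressed sequence tag for the other.

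MYD88 A_70_P008191: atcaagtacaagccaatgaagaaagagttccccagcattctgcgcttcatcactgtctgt

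MYD88 A_70_P036560: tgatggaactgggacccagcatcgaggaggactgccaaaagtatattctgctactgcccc

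The CD14 probes overlapped most, with 59 shared bases and an offset of 1 base, so they repeat essentially the same measurement. The TLR3 probes shared 30 bases, and the TLR7 probes and a pair of the TLR6 probes shared 20. The design listed a TLR1 transcript record beside the TLR6 record for all 3 TLR6 probes, and in the sheep RefSeq annotation (ARS-UI_Ramb_v3.0) TLR10, TLR1 and TLR6 are neighbours, as are TLR7 and TLR8. Signal of the TLR6 probes may therefore include a related transcript. Between TLR7 and TLR8 the closest probes matched at 27 of 35 aligned bases, and between TLR2 and TLR6 at 24 of 34.

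Across the series, 71.7% to 80.6% of probes were well above background on an array, and correlations between arrays ranged from 0.9566 to 0.987. The arrays lay on 2 slides of 8, each with all 4 groups. The hypothalamic peptides OXT, POMC, NPY, SST, AGRP, GHRH, GNRH1 and PMCH were among the tested genes, with a summed signal of 24.4 to 45.6 in NC and 27.1 to 58 in HC, where 1 is the 75th percentile of an array. AVP, CRH, TRH, HCRT and KISS1 had no named probe, and neither had any of the neuron or oligodendrocyte markers listed. Values below are log2 signals less the array's own 75th percentile, so lower values are dimmer and a step of 1 is a doubling. The member probes were dim to moderate, with a median processed signal of 98.6 intensity units, and local background had a median of 16.5 to 21.5 units. Because this is bulk tissue, a change in the number of cells of a type and a change in RNA per cell cannot be told apart.

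The first comparison, HC against NC, asks what remained 24 h after hypoxia without ketamine. TLR2, TLR4 and CD14 were higher after hypoxia, and MYD88, TLR3, TLR5, TLR6 and TLR7 did not pass the test. By limma, 5 of 15 member probes had an unadjusted p under 0.05 with a higher level in HC, against 4.22% of all 12249 tested probes, and 0 were lower, against 3.93%. These 5 probes were those of 3 genes. The median log2 difference was 0.25 over the 15 probes and -0.03 over all tested probes, and 14 of the 15 were above 0. When p-values were adjusted by the Benjamini-Hochberg method across the tested array, 0 member probes and 0% of all probes passed. The smallest adjusted p of a member was 0.342. Under normexp background correction, an alternative in which the median of all probes was -0.207, 0 member probes were called, against 2.62% of all tested probes. Of the 15 differences 10 turned sign, among them those of TLR4 (-0.19) and MYD88 (-0.40). A few spots with more background than foreground distorted that correction. With those spots left out, a choice made after seeing the data, 4 were called (8.14% of all tested probes) and 2 turned sign. Quantile normalization gave 5 called (7.65% of all tested probes) and 1 turned sign. In the authors' deposited values the first TLR2 probe differed by 0.51 and stayed past the threshold.

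TLR2 was the member with the smallest p in limma. On the NC arrays probe A_70_P050916, which had 5 spots per array, read -4.30, -4.00 and -3.79. On the HC arrays 1 to 5 it read -2.92, -2.75, -3.06, -2.0005 and -3.63. HC4 was highest and HC5 lowest, and HC5 still lay above all NC arrays, so the groups did not overlap. The means were -4.03 ± 0.26 (SD, n = 3) in NC and -2.87 ± 0.59 (SD, n = 5) in HC, a difference of 1.16 ± 0.29 (SE), or 2.23-fold, with an unadjusted limma p of 0.00159. The exact two-sided permutation test over 56 arrangements gave p = 0.0357.

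The other TLR2 probe, A_70_P050917, read -4.88, -4.64 and -3.95 in NC and -3.34, -3.11, -3.44, -2.36 and -4.06 in HC. Here HC5 fell just below NC3, so the groups overlapped by that 1 array, and the other HC arrays lay above every NC array. The difference was 1.23 ± 0.33 (limma p = 0.00234, exact permutation p = 0.0536). Across the 16 arrays the pair had a Pearson r of 0.982, with both read from the same arrays, and their differences between HC and NC were not separable (0.07 apart, exact permutation p = 0.518).

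CD14, the lipopolysaccharide co-receptor, had the largest difference in size and the largest spread. Probe A_70_P030286 read -2.90, -2.87 and -2.75 in NC and -1.59, -0.18, -1.24, -1.01 and -3.46 in HC. The NC arrays lay close together, HC1 to HC4 lay above them, and HC5 lay below all of them. The means were -2.84 ± 0.08 (SD, n = 3) and -1.49 ± 1.21 (SD, n = 5), a difference of 1.34 ± 0.59, or 2.54-fold (limma p = 0.0407, exact permutation p = 0.125). The probe offset by 1 base gave 1.36 ± 0.61 (limma p = 0.0428), and the pair had r = 0.966 over the arrays.

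TLR4, the lipopolysaccharide receptor, was separated by array order but mostly through 2 arrays. Probe A_70_P049612 read -5.07, -5.15 and -5.21 in NC and -4.87, -3.36, -4.92, -3.81 and -4.80 in HC. All HC arrays lay above all NC arrays, with HC2 and HC4 far above the rest and HC1, HC3 and HC5 just above NC. The difference was 0.79 ± 0.30, or 1.73-fold (limma p = 0.0184, exact permutation p = 0.125). Counting both genes, 2 of 15 member probes had non-overlapping arrays with HC higher, against 2.47% of tested probes. The probe described as TLR4 was well above background on 0 of 3 NC arrays, on all 5 HC arrays, on 1 NK array and on 0 HK arrays. It passed the filter of 3 arrays only through HC, the group where it was high, so its tests are not separate support. It read -5.85, -6.12 and -5.64 in NC and -5.05, -4.10, -5.05, -4.86 and -5.89 in HC. HC1 to HC4 were above NC and HC5 was inside its range, and with NC not well above background the difference was at least 1.77-fold (limma p = 0.00842, exact permutation p = 0.107). That call was lost in the authors' deposited values (0.12), under normexp (-0.34) and under normexp without the spots whose background exceeded their foreground (0.22). The TLR10 probes, well above background on 15 and 12 arrays, both differed by -0.44 (exact permutation p = 0.571 and 0.607).

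**Figure D1:**
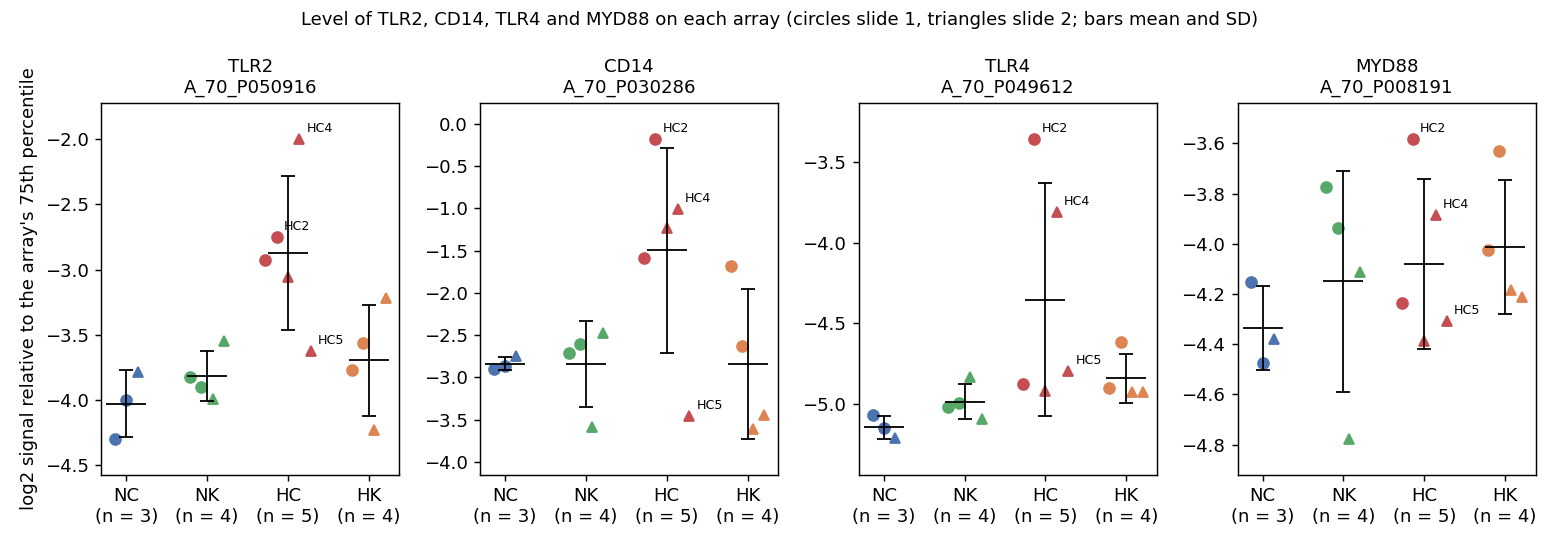
Level of 4 members on each array, as log2 signal less the array's own 75th percentile, by group. Points are arrays (circles slide 1, triangles slide 2) and bars are mean and SD, with vertical scales that differ between panels. In HC the arrays HC2 and HC4 lie high for all 4 genes, and HC5 lies near the normoxic arrays for TLR2 and below the NC arrays for CD14.

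The adaptor MYD88 did not pass the test. Probe A_70_P008191 read -4.15, -4.48 and -4.38 in NC and -4.24, -3.58, -4.39, -3.89 and -4.31 in HC. HC2 and HC4 were again the highest, but the other HC arrays lay inside the NC range. The difference was 0.25 with a 95% interval of -0.24 to 0.75 (limma p = 0.289, exact permutation p = 0.304), so a rise of up to that upper bound is within its error. The other MYD88 probe was well above background on 0 NC arrays and 3 HC arrays. Its difference of 0.53 had a 95% interval of -0.44 to 1.49 and did not pass either (limma p = 0.264, exact permutation p = 0.179). The MYD88 probes did not follow each other over the arrays (r = -0.234).

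Of the receptors for nucleic acids, TLR3 was measured on every array and TLR7 on some. The TLR3 probes differed by 0.06 ± 0.21 and 0.21 ± 0.23 between HC and NC (exact permutation p = 0.804 and 0.554), and HC2 was the highest array for both. Probe A_70_P049627 ranged from -3.06 to -1.85 in HC, wider than its range of -2.82 to -2.67 in NC. The TLR7 probes differed by -0.12 ± 0.45 and 0.32 ± 0.37 (exact permutation p = 0.875 and 0.464). They were well above background on 12 and 5 of the 16 arrays, and were unrelated to each other across arrays (r = 0.00193). For TLR6, the partner of TLR2, all 3 probes had differences between 0.07 and 0.20 with p from 0.302 to 0.688 in limma. TLR5, the flagellin receptor, differed by 0.08 ± 0.34 (exact permutation p = 0.75) and was well above background on 10 arrays.

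**Figure D2:**
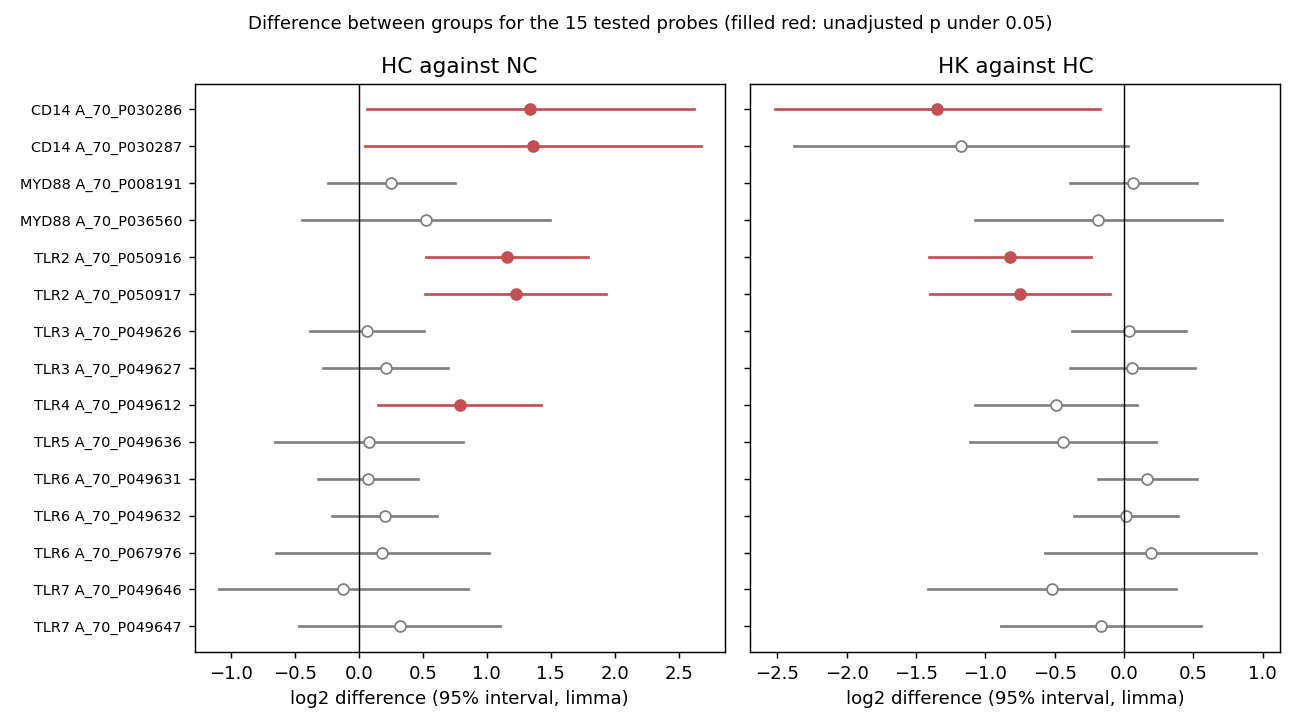
Log2 difference of the 15 tested member probes for HC against NC (left) and HK against HC (right), with 95% intervals from limma. Filled red points have an unadjusted p under 0.05. In the left panel the filled points are those of TLR2, CD14 and TLR4, all above 0. In the right panel they are 2 TLR2 probes and 1 CD14 probe, all below 0. Of the 15 probes, filled or open, 14 lie above 0 in HC against NC and 6 in HK against HC.

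Whether TLR2 moved apart from the other members was tested per array as the difference between brightest probes, a test added after the values were seen. Between HC and NC the TLR2 difference exceeded that of MYD88 by 0.90, of TLR6 by 1.08 and of TLR7 by 1.28 (exact permutation p = 0.0357, 0.0357 and 0.0179). Adjusted over the 7 genes, each gave 0.0833, so none passed. The TLR2 difference was not separable from that of CD14 (-0.19, exact permutation p = 0.732) or TLR4 (0.37, exact permutation p = 0.375).

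The second comparison, HK against HC, asks what ketamine given before hypoxia changed. It uses the same 5 HC arrays as the first, so high values in HC enter both with opposite sign, and the values are given side by side without being counted as separate support. TLR2 and 1 CD14 probe were lower with ketamine. In all, 3 of 15 member probes were lower, against 3.79% of tested probes, and 0 were higher, against 3.25%. The member median was -0.19 and that of all tested probes 0.03. The smallest adjusted p of a member was 0.685, and 0 probes of the array passed adjustment.

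TLR2 probe A_70_P050916 read -3.77, -3.56, -4.23 and -3.21 on HK arrays 1 to 4. HK2 and HK4 were above HC5, so the groups overlapped through that array alone, and HC1 to HC4 lay above every HK array. The level fell by 0.82 ± 0.27 on the log2 scale (limma p = 0.00903, exact permutation p = 0.0476 over 126 arrangements). For A_70_P050917 the readings were -4.17, -3.87, -4.52 and -3.48, and the level fell by 0.75 ± 0.30 (limma p = 0.0266, exact permutation p = 0.0794).

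CD14 probe A_70_P030286 read -1.68, -2.63, -3.61 and -3.45 in HK. HK1 lay just below the lowest of HC1 to HC4, and HK3 and HK4 were at the level of HC5. The mean fell by 1.35 ± 0.55 (limma p = 0.0274, exact permutation p = 0.0952). The probe offset by 1 base fell short of the threshold, with -1.18 ± 0.56 (limma p = 0.0547, exact permutation p = 0.175), although the difference between these probes was -0.17 and not separable (exact permutation p = 0.111). The call for CD14 in this comparison therefore turned on which of a nearly identical pair was read.

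TLR4 did not pass, with -4.90, -4.62, -4.92 and -4.92 in HK and a difference of -0.49 ± 0.27 (limma p = 0.0939, exact permutation p = 0.302). HC1, HC3 and HC5 lay among the HK arrays, and HC2 and HC4 alone lay above them. The probe described as TLR4, which passed the filter only through HC, was well above background on 0 HK arrays. The lower bound on the fold between these group means was 1.56, which does not measure the spread between fetuses. The log2 difference had a 95% interval of -1.33 to -0.20 (limma p = 0.0119, exact permutation p = 0.0556). This call too was lost in the deposited values (-0.05), under normexp (0.34) and under normexp without the spots whose background exceeded their foreground (-0.08). The TLR10 probes differed by 0.19 and 0.17 (exact permutation p = 0.786 and 0.817). MYD88 probe A_70_P008191 read -4.02, -3.63, -4.18 and -4.21, a difference of 0.07 with an interval of -0.39 to 0.52 (exact permutation p = 0.738). The other members had differences from -0.52 (TLR7) to 0.19 (TLR6), none of which passed.

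HC2 and HC4, and in the other direction HC5, set much of the size of these values. With each array of the compared groups left out in turn, the TLR2 difference between HC and NC ranged from 0.94 to 1.35 for A_70_P050916 and from 1.001 to 1.496 for A_70_P050917, and both passed the unadjusted limma threshold each time. The CD14 probes passed it in only 1 of these 8 fits, the fit without HC5, where the differences were 1.83 and 1.86 (adjusted p = 0.109 and 0.113 in limma) and TLR2 probe A_70_P050916 reached an adjusted p of 0.0465. The number of member probes called was 2 without NC3 and 3 without NC1, NC2, HC1, HC2, HC3 or HC4. The share of all tested probes called ran from 5.06% (without NC2) to 10.8% (without HC1), against 8.15% with all arrays. For HK against HC 5 member probes were called without HC5 (8.5% of all tested probes), where CD14 probe A_70_P030287 and TLR7 were added. Without HC4 or HK3 1 was called (5.29% and 4.14%), against 7.04% with all arrays. Without HC2 2 were called (8.54%), of which 1 was higher in HK (TLR6 probe A_70_P049631, 0.33), and TLR4 gained a call without HC1 (-0.62) or HC3 (-0.63). TLR4 kept its call in HC against NC except without NC3 (0.76, adjusted p = 0.805 in limma). In HK against HC, TLR2 probe A_70_P050917 lost its call without HC2, HC4, HK1 or HK3 and CD14 probe A_70_P030286 without HC2, HC3, HC4, HK3 or HK4, whereas TLR2 probe A_70_P050916 kept it in all 9 fits (-1.01 to -0.60). On HC5, 80.6% of probes were well above background, the highest share of the 16 arrays.

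**Figure D3:**
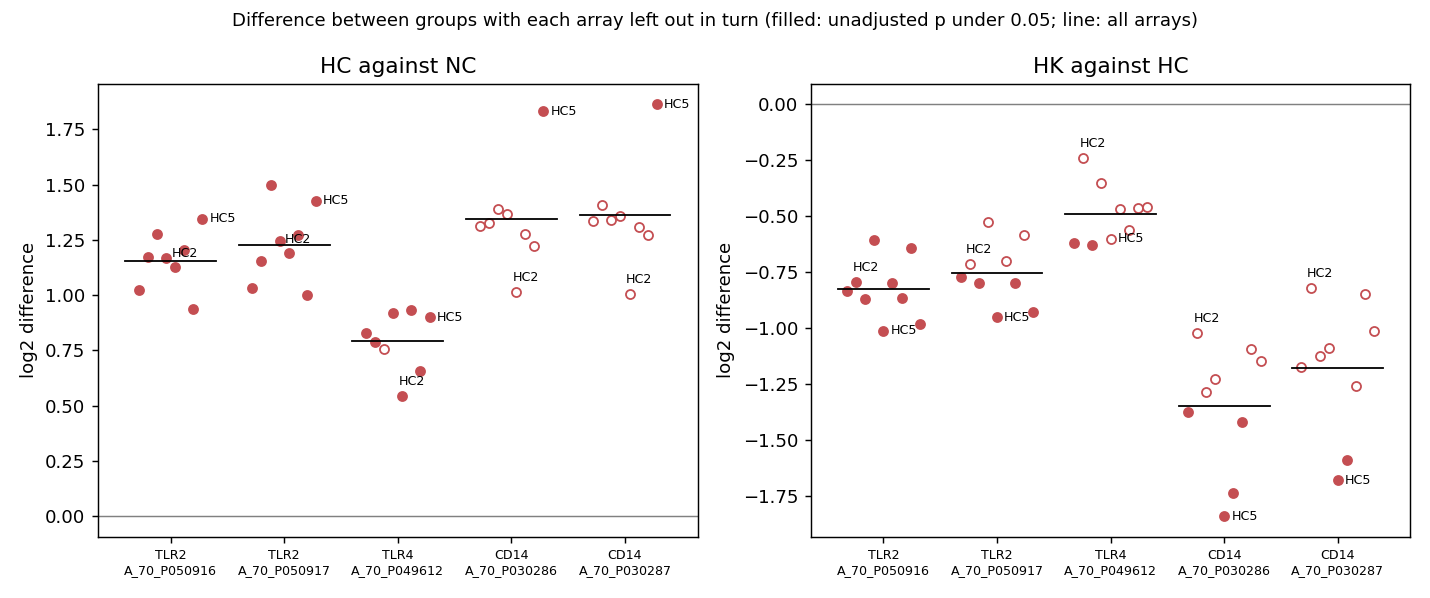
Log2 difference of 5 probes for HC against NC (left) and HK against HC (right) with each array of the compared groups left out in turn. Each circle is the value with 1 array left out (filled if the unadjusted limma p was under 0.05), the line is the value with all arrays, and the fits without HC2 or HC5 are named. CD14 reached 1.83 and 1.86 without HC5 in HC against NC, and TLR2 stayed filled throughout on that side.

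Within the slides the direction of TLR2, TLR4 and CD14 was the same. On slide 1 the HC minus NC difference was 1.31 ± 0.17 for TLR2 probe A_70_P050916 and 1.996 ± 0.51 for CD14 probe A_70_P030286, both past the unadjusted limma threshold, and 0.99 ± 0.46 for TLR4, which was not. On slide 2, which held 1 NC array, the values were 0.89 ± 0.69, 0.85 ± 1.01 and 0.70 ± 0.44, none passing. HK minus HC for the same TLR2 probe was -0.83 on both slides, past the threshold on slide 1 only. HC5 was on slide 2.

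Ketamine without hypoxia, NK against NC, gave 0 of 15 members called, against 1.09% of all tested probes. TLR2 probe A_70_P050916 read -3.82, -3.90, -3.99 and -3.55 in NK, a difference of 0.21 with an interval of -0.45 to 0.87 (exact permutation p = 0.314). CD14 probe A_70_P030286 differed by -0.01 with an interval of -1.34 to 1.33 (exact permutation p = 1). The CD14 interval was wide enough that a change of up to about its bounds was not detectable. Non-overlapping arrays were seen for 2 of 15 probes, both overlapping TLR6 probes with NK higher, against 1.58% of tested probes. They differed by 0.19 and 0.36 (exact permutation p = 0.0571 and 0.0286, the latter the smallest that 35 arrangements give), and neither passed in limma.

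Hypoxia under ketamine, HK against NK, also gave 0 of 15 members called, against 8.69% of tested probes, of which 0.00816% (1 probe) passed adjustment. TLR2 differed by 0.12 with an interval of -0.49 to 0.74, and CD14 probe A_70_P030286 by 0.00 with an interval of -1.24 to 1.24 (exact permutation p = 0.6 and 1). In order of mean TLR2 level the groups were therefore HC, HK, NK and NC, and none of the neighbours below HC differed beyond its error. For CD14 probe A_70_P030286 the means of NC, NK and HK were all -2.84, with HC at -1.49. For the probe offset by 1 base they were -2.99, -3.06 and -2.81, with HC at -1.63. For TLR4 the order was HC (-4.35), HK (-4.84), NK (-4.98) and NC (-5.14), and of these neighbours none passed the test.

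The interaction (HK minus HC, less NK minus NC) tests directly whether ketamine had unequal differences with and without hypoxia. It was called for 1 of 15 members, with a lower value, against 2.49% of tested probes. For TLR2 probe A_70_P050916 it was -1.03 ± 0.41, with a 95% interval of -1.92 to -0.15 in limma. For A_70_P050917 it was -0.97 ± 0.46, with an interval of -1.95 to 0.02. For CD14 probe A_70_P030286 it was -1.34 ± 0.83 and for TLR4 -0.65 ± 0.41, with intervals that included 0. Each had an adjusted p = 0.994. The TLR2 call was lost without NC1 or HK3, and without HC5 the count rose to 4, with both TLR2 and both CD14 probes. Of all tested probes 4.42% were called in either direction without HC5, against 3.8% with all arrays.

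Pairs of probes of the same gene differed in how closely they followed each other. Brightness and shared bases both differed between the pairs, and the part of either was not tested. The TLR2, CD14 and TLR3 pairs, well above background on all 16 arrays, had r of 0.982, 0.966 and 0.935. The overlapping TLR6 pair had r = 0.74, but the third TLR6 probe, from elsewhere in the transcript, was unrelated to A_70_P049631 (r = 0.0519). Of 16 tests of a difference between probes of a gene, the smallest exact permutation p was 0.0317, for the overlapping TLR6 pair in HK against HC (0.15 apart), and it did not pass adjustment over the 16 (0.50).

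**Figure D4:**
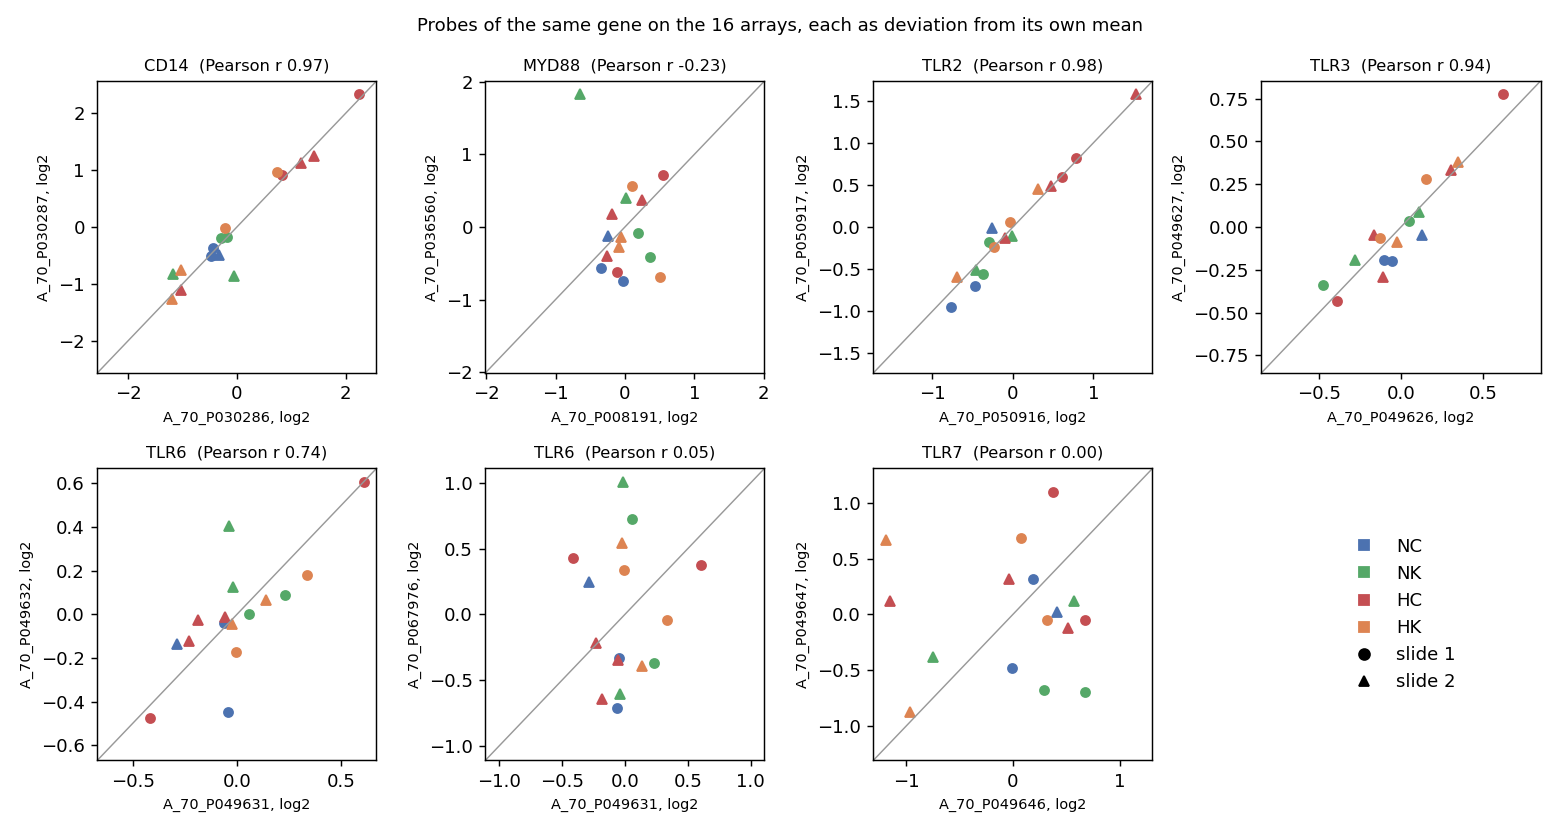
Probes of the same gene plotted against each other over the 16 arrays, each as log2 deviation from its own mean, with the line of equality. Colours are groups and symbols slides. Points follow the line for TLR2 (r = 0.98), CD14 (0.97) and TLR3 (0.94) and scatter for MYD88, TLR7 and the third TLR6 probe.

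Downstream, 18 tested genes of the Toll-like receptor pathway outside the members, of 60 listed and 19 on the array, were compared in the same fit. LBP and LY96, which work with CD14 and TLR4, had no named probe. Of the 18, 7 were higher in HC than NC and 0 lower, against 4.22% and 3.93% of all tested probes, with a list median of 0.92 beside -0.03 over all tested probes. They were NFKBIA, the inhibitor of NF-kB and a target of it (1.37 ± 0.36), the cytokines TNF (1.70 ± 0.62) and IL1B (1.08 ± 0.42), the transcription factor IRF1 (2.81 ± 0.80), the prostaglandin synthase PTGS2 (2.95 ± 0.55), the chemokine CXCL10 (4.42 ± 1.74) and the co-stimulatory receptor CD86 (0.75 ± 0.33). The unadjusted limma p of these ranged from 9.93e-05 to 0.0362, and none passed adjustment.

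The signalling intermediates were not called. IRAK4, a kinase recruited by MYD88, differed by 0.32 ± 0.34, TRAF3, an adaptor of the interferon branch, by 0.03 ± 0.17, and IRF3, the transcription factor of that branch, by 0.17 ± 0.16 between HC and NC. In HK against HC, 4 of the 18 were lower and 0 higher, against 3.79% and 3.25% of all tested probes, with a list median of -0.62 beside 0.03 over all tested probes. They were TNF (-1.62 ± 0.57), IL6 (-1.59 ± 0.60), PTGS2 (-1.14 ± 0.50) and NFKBIA (-0.74 ± 0.33). In NK against NC 0 of 18 passed, against 1.09% of all tested probes. In HK against NK PTGS2 alone was higher (1.32 ± 0.53), against 2.38% of all tested probes. The summed signal of the list ranged from 4.47 to 5.29 in NC, from 9.16 to 73.3 in HC with HC4 highest, and from 4.88 to 21.3 in HK.

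**Figure D5:**
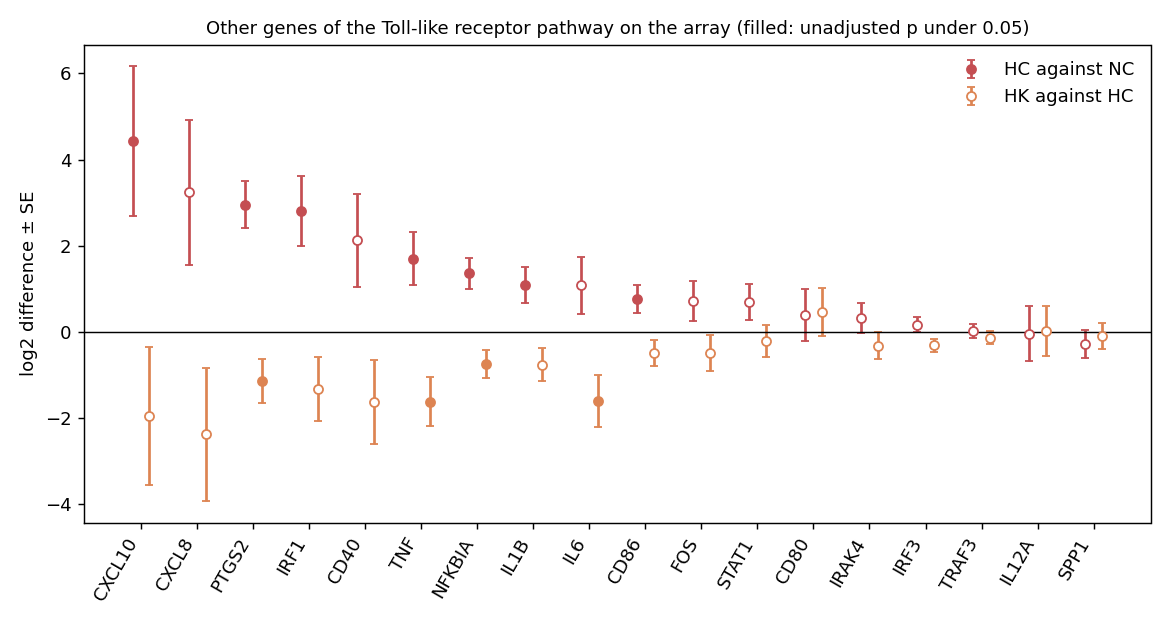
Log2 difference ± SE of the 18 tested pathway genes outside the members, for HC against NC and HK against HC, ordered by the former. Filled points have an unadjusted limma p under 0.05. The 7 filled HC against NC points lie above 0 and the 4 filled HK against HC points below it.

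Markers of myeloid cells moved with these genes in part. Of 16 microglia and macrophage markers listed, 2 had named probes, and both were higher in HC than NC at the unadjusted threshold, as were 4.22% of tested probes. These were FCER1G, an immunoglobulin receptor chain (0.45 ± 0.21, adjusted p = 0.603 in limma), and ITGAM, an integrin of microglia and granulocytes (0.74 ± 0.33, adjusted p = 0.585). Their summed signal was 0.577 to 0.699 in NC, 0.592 to 1.44 in HC and 0.66 to 0.773 in HK, with HC2 highest and HC1 within the range of NC. In HK against HC neither passed (-0.31 and -0.08). ITGB2, the only one of 10 listed neutrophil markers on the array, differed by 0.38 ± 0.34 in HC against NC (adjusted p = 0.815 in limma). Of the other lists, 1 of 3 astrocyte genes was lower in HC than NC, as were 3.93% of all tested probes. In that comparison 0 of 3 endothelial, 0 of 8 hypothalamic peptide and 0 of 3 pituitary genes were called, against 8.15% in either direction. In HK against HC 1 of 3 astrocyte and 1 of 3 pituitary genes were higher, against 3.25%. In HK against NK 1 of 3 pituitary genes was higher, against 2.38%. For the microglia markers HC1, high for TLR2 and CD14, was at 0.592, and HC2, the highest array for CD14, was at 1.435. The part of cell number in the TLR2, TLR4 and CD14 values was not tested.

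Among 861 named genes, those most like the members over the 16 arrays were listed as a description, since all points share the same arrays and groups. For TLR2 they were MTHFD2, a mitochondrial folate enzyme (Pearson r = 0.905), PTGS2 (0.899) and MCL1, an anti-apoptotic protein (0.874). For TLR4 they were FAS (0.894), a death receptor, FCGR1A (0.869), an immunoglobulin receptor, and CD40 (0.858). For CD14 they were the transcription factor CEBPB (0.876), MTHFD2 (0.862) and LOC100037678 (0.823). For MYD88 they were AURKA (0.778), BAK (0.767) and AQP8 (0.748). Without HC2 and HC4, the arrays farthest from the median, r fell to 0.152 for TLR4 and FCGR1A and to 0.463 for TLR4 and FAS, and was 0.733 for TLR4 and CD40, 0.807 for TLR2 and PTGS2 and 0.744 for CD14 and CEBPB. Among the members, TLR2 had r = 0.738 with CD14, 0.718 with TLR4 and 0.335 with MYD88.

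TLR1, TLR8 and TLR9 were near the floor of the array. The TLR8 probes were well above background on 0 arrays. The TLR1 probe was so on HK2 alone, at -4.07, where the other arrays lay between -8.81 and -6.45. TLR9 probe A_70_P051081 was so on HC1 alone, at -5.82, although it read -5.70 on HK1 without passing that mark, while the probe offset by 6 bases read -7.86 on that array. These genes were left out of the main fit. With no filter on dim probes 20 member probes were tested. The counts were 5 in HC against NC (7.34% of all probes) and 3 in HK against HC (6.27%), as in the main fit.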

How the data were processed

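One-colour Agilent sheep arrays of 16 fetal hypothalami were analysed. The deposited intensity values came, per the file headers, from Feature Extraction 10.1.1.1 (the methods name an earlier release), with background subtracted by the software but not normalized between arrays. The authors also deposited log2 values of the same arrays, used as an alternative. Outlying spots (0.0801%) were left out, log2 processed signals were centred on each array's 75th percentile, and spots of a probe were averaged. Of 15008 probes, the 12249 that at least 3 arrays read well above background entered limma 3.58.1 in R 4.3.3, with 4 groups in 1 fit (13.7 degrees of freedom), two-sided, at an unadjusted p under 0.05 as in the study's methods. The procedure was tested on simulated data. Members, gene lists and tests were chosen with earlier results of these data known. Named genes were all members, the pathway list by its counts with its NF-kB, TNF, IL1B, IRAK, TRAF and IRF genes, the genes called in it, and the 3 most similar genes of 4 members. Each listed gene was represented by its brightest probe. A probe not well above background in a group has a bound on the fold between group means, from the lowest well-above-background signal on each array. This bound does not measure the spread between fetuses. P-values measure the spread between fetuses, mostly twins by the study's account, with littermates not labelled. The study assigned pregnancies, rather than single fetuses, to normoxia or hypoxia. Fetuses were treated as independent here, so any ewe shared within or between groups was not accounted for. The number of arrays limits precision. Alternatives varied background correction, normalization, filter, slide, variance model and arrays.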

Additional observations from a re-analysis of the deposited data

Results flagged for a closer look

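For TLR4 probe A_70_P049612, HK2 stood apart from the other HK arrays, at -4.62 where the nearest read -4.90. It was the only outlying array in the 45 groups of member values examined, of which chance marks about 1 in 20. TLR2 probe A_70_P050916 had a ketamine difference that was unequal after hypoxia and after normoxia, with an interaction of -1.03 (SE 0.41, adjusted p = 0.994 in limma). TLR1 had a signal well above background on HK2 alone (-4.07, against at most -7.80 in NC), and TLR9 probe A_70_P051081 on HC1 alone (-5.82, against at most -7.05 in NC), although HK1 read -5.70 on that probe without being marked above background. The probe described as TLR4 outside the rule, A_70_P049611, differed by 0.88 in HC against NC and by -0.77 in HK against HC (exact permutation p = 0.107 and 0.0556). The lower bounds on the fold between its group means, 1.77 and 1.56, were taken in the main processing only and do not measure the spread between fetuses. It had passed the filter only through HC, the group where it was high. Neither difference was past the threshold in the deposited values (0.12 and -0.05).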

How the results depend on the processing

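In normexp background correction a few spots with more background than foreground distorted the fit on 4 arrays. Under it 0 member probes were called in HC against NC (5 in the report), HK against HC (3) and the interaction (1). The share of all tested probes called fell as well, from 8.15% to 2.62%, from 7.04% to 1.7% and from 3.8% to 1.78%. The sign turned for 10 of 15 member probes in HC against NC and 6 in HK against HC. Of the values called in the report, 3 turned sign: TLR4 in HC against NC (-0.19), TLR2 probe A_70_P050917 in HK against HC (0.018) and TLR2 probe A_70_P050916 in the interaction (0.44). With those spots left out of the correction, an alternative chosen after seeing the data, 4 were called in HC against NC (8.14% of all tested probes). In HK against HC 3 were called (6.64%) and in NK against NC 1 (0.776%). Fitting only the groups compared gave 2, 1 and 1 in those comparisons (6.63%, 4.26% and 1.8% of all tested probes). Within slide 2 the counts were 0 in HK against HC (7.24%) and 1 in HK against NK (6.52%). Within slide 1 the interaction had 3 (2.3%). Array weights gave 2 in NK against NC (2.28% of all tested probes) and 2 in the interaction (6.42%), and the deposited values 0 in the interaction (3.36%). With 1 array left out, counts ranged from 2 to 5 in HC against NC, from 1 to 5 in HK against HC, from 0 to 1 in NK against NC, from 0 to 2 in HK against NK and from 0 to 4 in the interaction. The difference between the overlapping TLR6 probes in HK against HC (0.15) was 0.054 under normexp and 0.087 in the deposited values. Causes of these changes, other than the normexp fit and the smaller sets of arrays, were not tested.

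Whether replicate numbers paired the arrays could not be told, because same-numbered arrays also shared a slide. Correlations of same-numbered deviations ran from -0.0599 to 0.347 (median 0.224), against a median of -0.0979 for other numbers. For arrays of the same slide the median was 0.217, where replicates 1 and 2 lay on slide 1 and the rest on slide 2. With the replicate number as a block, 5 member probes were called in HK against HC (9.32% of all tested probes) and 4 in the interaction (4.53%). HC5 was the only array with its number, so this block took HC5 out of the group differences. The counts were those of the fits without HC5. Dim probes (MYD88 A_70_P036560, TLR5, TLR7) were limited by signal over background.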
